A study of Mus musculus with 3 samples.

Results

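The genes described here are 10 members of the Bcl-2 family, the proteins that set whether a cell keeps or opens the outer membrane of its mitochondria. They were taken by symbol from the deposited gene and transcript tables, as 10 of 55450 annotated genes there; no threshold on a measured value entered the choice. RNA came from the nuclear fraction (one label field says nucleoplasmic) of bone marrow-derived macrophages, phagocytes grown in culture from marrow, of C57BL/6J mice. All cells had received Lipid A, the membrane anchor of lipopolysaccharide and ligand of the receptor Tlr4, at 100 ng/ml for 15 min. The labels hold 1 group of 3 biological replicates and no untreated or later sample is analysed here, so every value below is a level at that time and none is a response to Lipid A. Starting RNA was 1 µg for replicates 1 and 3 and 500 ng for replicate 2. The replicates are separate biosamples under 1 donor entry, so the spread between them may be technical, and the age and sex of the mice were not recorded.

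In this family the survival proteins, here Mcl1, Bcl2, Bcl-xL (from Bcl2l1) and A1 (from the Bcl2a1 genes), bind and restrain the effectors Bax and Bak, which otherwise form pores in the mitochondrial outer membrane. BH3-only proteins, here Bid and Bim (from Bcl2l11), are the death signals: they occupy the survival proteins or activate the effectors directly. Pores let cytochrome c out, which starts the caspase cascade. Mcl1 protein is short-lived and is remade constantly, and A1 is a known target of NF-κB in activated leukocytes.

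The 3 libraries held between 17328240 and 20923982 expected counts in annotated genes, and the 10 members together took 0.138% to 0.165% of them. Of all genes, 15869 had a mean of at least 10 expected counts, and all 10 members passed that filter, Bcl2a1a with a mean of 11.6. Levels are given in TPM, a share of all transcripts in a library after division by length, which allows genes to be compared within a library. Protein-coding genes took only 27.5%, 35.5% and 21.3% of TPM in replicates 1 to 3, so TPM of a gene moves with what the rest of a library holds, and calls between libraries use counts scaled to library size (CPM) instead. Of 10 macrophage markers, 10 passed the filter, with a median level between 109 and 139 TPM. The marker lists of neutrophils, B cells, T cells, dendritic cells and mast cells summed to between 0.0700 and 6.48 TPM per library, and Ly6g, Retnlg, Cd3e, Cd2, Fcer1a and Tpsb2 had no count in any library.

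Mcl1 was by far the most abundant member, and it was called in no library. Mcl1 (ENSMUSG00000038612.16, chromosome 3, 95658788 to 95663176, GRCm38) stood at 224, 254 and 246 TPM in replicates 1, 2 and 3, a mean of 241 ± 16.0 TPM (SD, n = 3). This put it at percentile 99.4 among the 11953 protein-coding genes that passed the filter, whose median was 6.88 TPM. Its level rested on 18080, 16937 and 25658 expected counts, or 916, 960 and 1330 CPM, so that replicate 3 was 1.42-fold above the mean of the others on the scale used between libraries. All of these were assigned to Mcl1-201, the form of 331 codons. The second deposited transcript table, made by another method, instead gave 3.41% and 11.9% of its counts in replicates 1 and 3, and none in replicate 2, to Mcl1-202. The protein-coding genes nearest to Mcl1 in level over the 3 libraries, by distance on log2(TPM + 0.1), were Trem2, Cd68, Srsf5, Cd14 and C1qc, at distances of 0.225 to 0.326.

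**Figure D1:**
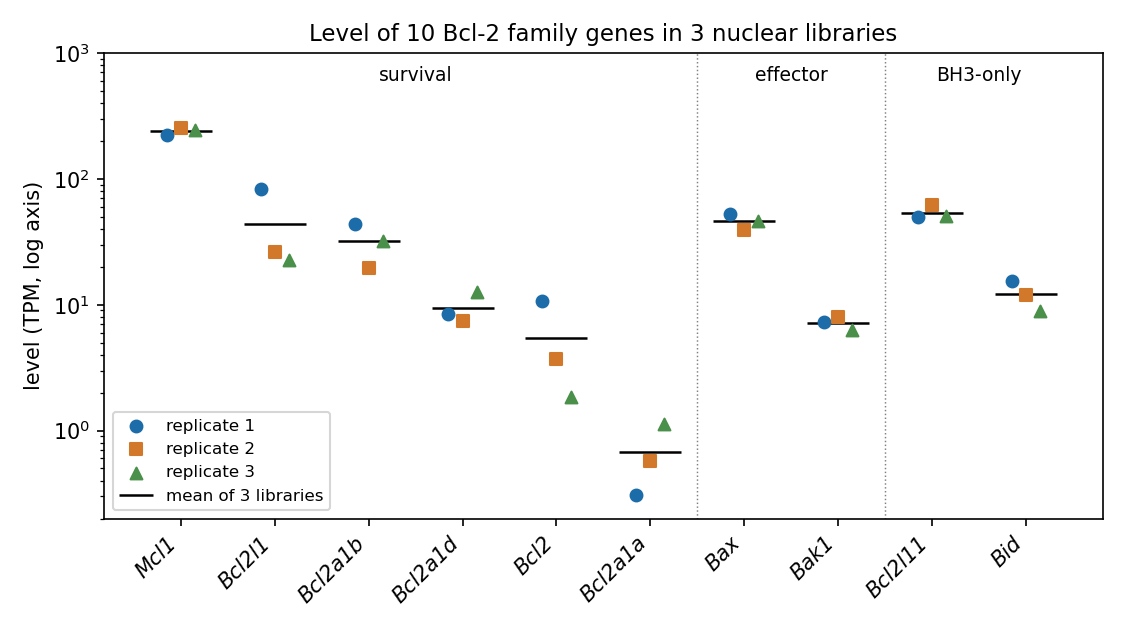
Level of each member in TPM on a log axis. Points are libraries, the bar is their mean, and dotted lines separate survival, effector and BH3-only members. Mcl1 sits at 224 to 254 TPM, above every other member in each library, while Bcl2l1 and Bcl2 spread most widely among the members above 1 TPM.

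Bcl2l1, which encodes the survival protein Bcl-xL, was the next survival gene by mean and 1 of the least stable. Bcl2l1 (ENSMUSG00000007659.18, chromosome 2, 152780668 to 152831728) stood at 82.6 TPM in replicate 1, 26.3 in replicate 2 and 22.9 in replicate 3, a mean of 43.9 ± 33.5 TPM (SD, n = 3). Replicate 1 was high and the others lay close together, so that the mean without replicate 1 was 24.6 TPM.

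Bcl2, the founding survival gene of the family, was also highest in replicate 1, at a lower level. Bcl2 (ENSMUSG00000057329.7, chromosome 1, 106538178 to 106714274) stood at 10.7, 3.70 and 1.84 TPM, a mean of 5.42 ± 4.68 TPM (SD, n = 3). The mean without replicate 1 was 2.77 TPM. Bcl2 thus lay at percentile 43.6 of the protein-coding genes that passed the filter.

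Between libraries, Bcl2l1 and Bcl2 were the members that replicate 1 held in excess. A gene was called in a library when its normalised CPM there was at least 2-fold above both other libraries, or at least 2-fold below both. In replicate 1, 4.86% of all 15869 genes were called above and 3.23% below, and of the 10 members 2 were above and none below. Bcl2l1 had 205, 61.0 and 75.3 CPM, so replicate 1 was 3.02-fold above the mean of the others on the log scale. Bcl2 had 62.5, 21.2 and 15.0 CPM, and replicate 1 was 3.50-fold above. These calls set 1 library against 2 and carry no p-value.

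None of the 5 marker lists of other cells was highest in replicate 1. In that library the B cell marker list summed to 1.03 TPM against 6.48 and 3.78 in the others, and the T cell list to 0.280 TPM against 0.0700 and 0.610. No macrophage marker was called in any library, but in replicate 1 Itgam was at 1.91 and Mertk at 0.504 times the mean of the others. Whether the mix of cells bears on Bcl2l1 and Bcl2 in replicate 1 was not tested. In bulk RNA such as this, more cells of a type and more RNA per cell cannot be told apart.

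**Figure D2:**
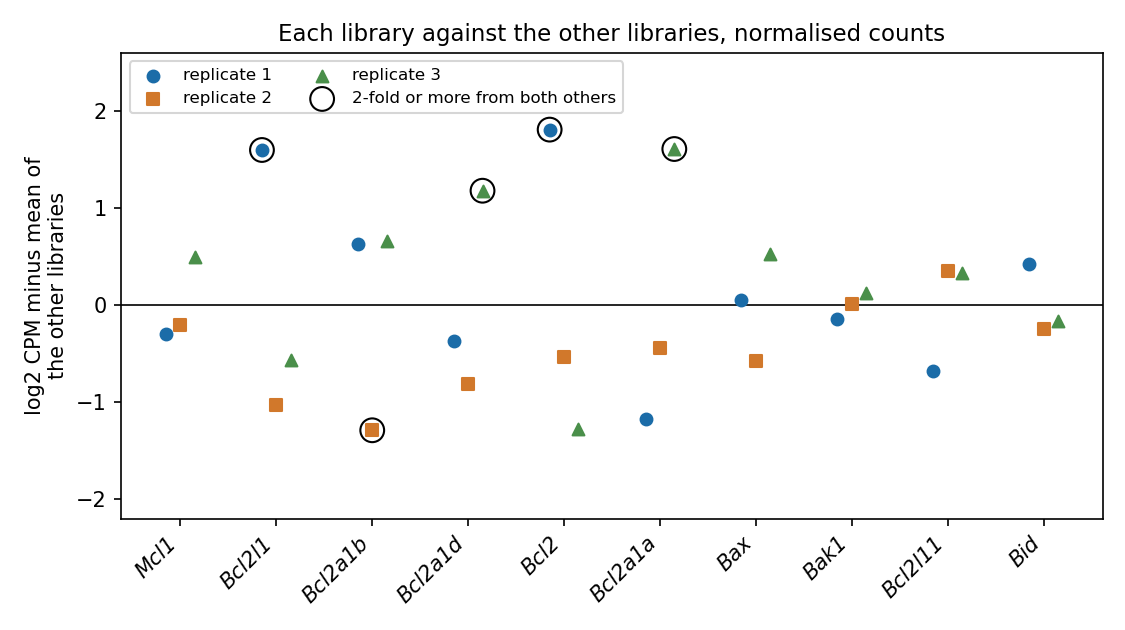
Log2 CPM of each member in a library minus the mean of the other libraries. Black rings mark values at least 2-fold from both others: Bcl2l1 and Bcl2 in replicate 1, Bcl2a1b in replicate 2, and Bcl2a1d and Bcl2a1a in replicate 3.

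The 3 Bcl2a1 genes among the members lie on chromosome 9 and encode near-identical copies of A1, so reads can be told apart only at a few bases. Bcl2a1b (ENSMUSG00000089929.1, 89199209 to 89207827) and Bcl2a1a (ENSMUSG00000102037.1, 88956900 to 88962419) are on the plus strand, and Bcl2a1d (ENSMUSG00000099974.1, 88723285 to 88731914) is on the minus strand. Each has a coding sequence of 516 bases. The coding sequences were 97.9% identical between Bcl2a1a and Bcl2a1b (11 differences), 98.6% between Bcl2a1a and Bcl2a1d (7 differences) and 98.8% between Bcl2a1b and Bcl2a1d (6 differences), with no insertion or deletion. The first 120 coding bases are shown because they hold 7 of the variable positions. Capitals mark the bases at which the 3 copies are not all the same, in the GENCODE M21 transcripts (GRCm38).
Bcl2a1a, chr9:88957051-88957170, plus strand: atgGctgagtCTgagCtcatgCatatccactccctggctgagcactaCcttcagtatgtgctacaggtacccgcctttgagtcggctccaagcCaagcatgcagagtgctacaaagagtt
Bcl2a1b, chr9:89199360-89199479, plus strand: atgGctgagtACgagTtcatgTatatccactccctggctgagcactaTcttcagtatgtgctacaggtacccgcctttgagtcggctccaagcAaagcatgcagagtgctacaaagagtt
Bcl2a1d, chr9:88731600-88731719, minus strand: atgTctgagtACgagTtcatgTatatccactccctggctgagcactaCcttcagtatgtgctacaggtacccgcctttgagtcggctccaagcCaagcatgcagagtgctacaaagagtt
Counted from 1 at the start codon, and with the Bcl2a1a base first, C11A, T12C, C16T and C22T separate Bcl2a1a from both others in this stretch. With the Bcl2a1b base first, T48C and A94C separate Bcl2a1b from Bcl2a1d, and G4T sets Bcl2a1d apart from the other copies. Between Bcl2a1a and Bcl2a1d the longest identical run was 314 bases.

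How much of each copy is unique bounds how well its counts are known. Of the 31-base words in its transcript, Bcl2a1b shared 88.8% with other annotated genes on the same strand, Bcl2a1d 89.1% and Bcl2a1a 79.6%. Bcl2a1b also shared 47.3% of its words with Gm29094, an annotated protein-coding gene that overlaps it on the same strand and held 150, 65.1 and 123 expected counts. By comparison, Mcl1 shared 0.498% of its words and Bcl2l1 none on its own strand. The deposited posterior SD of the count, which measures how uncertain the division of reads was, was 20.8, 12.7 and 21.8 counts for Bcl2a1b, against 0 in every library for Mcl1.

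Bcl2a1b carried most of the A1 signal. Its level was 44.0, 19.4 and 32.1 TPM, a mean of 31.8 ± 12.3 TPM (SD, n = 3), from 657, 241 and 653 expected counts. Replicate 2 was low, at 13.8 CPM against 33.4 and 34.0, and it was 0.409 times the mean of the others. This was the 1 member called below in replicate 2, where 2.22% of all genes were; none of the members was called above there, against 0.857% of all genes.

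Bcl2a1d was at 8.43, 7.37 and 12.6 TPM, a mean of 9.46 ± 2.75 TPM (SD, n = 3). Bcl2a1a was the lowest of the 10 members at 0.310, 0.570 and 1.13 TPM, which rested on only 4.63, 7.09 and 23.0 expected counts. Both copies were highest in replicate 3, where 1.54% of all genes were called above and 1.39% below. The 2 were the members called above, at 2.26-fold for Bcl2a1d and 3.06-fold for Bcl2a1a over the mean of the others, and no member was called below. With library totals in place of TMM scaling factors, and in the second table, Bcl2a1d was no longer called. The sum of the 3 copies does not depend on how reads were divided among them, though it may depend on reads shared with Gm29094 or Bcl2a1c. It was 798, 347 and 950 expected counts, with replicate 2 the lowest. Replicate 2 was also the lowest in summed counts of the second table, at 1098, 669 and 1227. On TPM the sum was 52.7, 27.4 and 45.9 in the first table but 23.3, 20.7 and 6.87 in the second, where replicate 3 was the lowest.

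Both tables gave the largest part of that sum to Bcl2a1b, by different margins. The first table assigned it 83.4%, 71.0% and 70.1% of the summed TPM, and in the second table its part was 76.6%, 59.9% and 62.3%. Bcl2a1d took 16.0%, 26.9% and 27.4% in the first table and 22.7%, 37.5% and 34.3% in the second. The order of the copies was the same in each library and table, with Bcl2a1a at 3.33% or less.

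**Figure D3:**
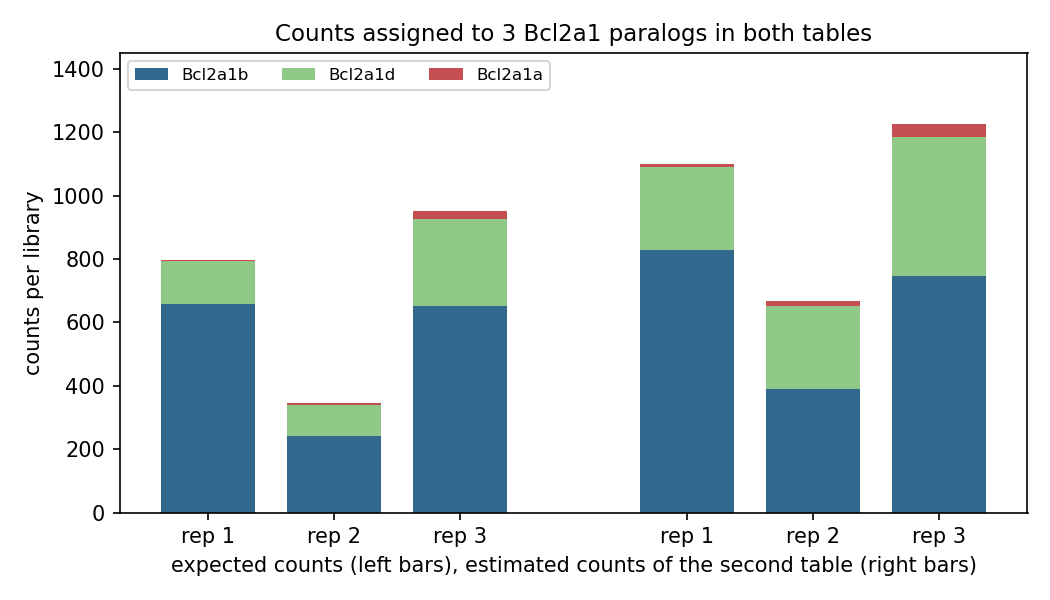
Counts assigned to Bcl2a1b, Bcl2a1d and Bcl2a1a in each library, stacked; the 3 left bars are expected counts of the first table and the 3 right bars estimated counts of the second table. The total is lowest in replicate 2 in both tables, and Bcl2a1b is the largest part of each bar.

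The copies also resemble each other upstream. In the RefSeq promoter windows (GRCm38.p6, 250 bases before to 50 after the start), which overlap by 250 to 294 aligned bases, the pairs were 98.0% to 99.2% identical. The stretch that lies before the annotated transcripts of these copies is shown because it holds a difference in copy number of a short motif. Capitals mark bases that differ from, or are missing in, another copy.
Bcl2a1a, chr9:88956714-88956855, plus strand: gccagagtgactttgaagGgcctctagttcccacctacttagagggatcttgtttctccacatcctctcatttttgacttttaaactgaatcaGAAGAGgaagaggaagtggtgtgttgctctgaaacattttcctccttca
Bcl2a1b, chr9:89199023-89199164, plus strand: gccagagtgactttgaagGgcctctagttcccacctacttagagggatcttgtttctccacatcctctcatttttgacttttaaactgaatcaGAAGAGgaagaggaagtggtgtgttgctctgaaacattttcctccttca
Bcl2a1d, chr9:88731915-88732050, minus strand: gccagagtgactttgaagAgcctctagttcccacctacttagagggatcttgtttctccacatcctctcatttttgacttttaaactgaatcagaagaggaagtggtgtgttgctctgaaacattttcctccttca
The letters GAGGAA occur at 2 places in the stretches of Bcl2a1a and Bcl2a1b and at 1 in that of Bcl2a1d, which lacks 6 bases there. Searched on both strands, GAGGAA was in 28.3% of all 32817 promoter windows of the same 300 bases, so its presence is common and is given as a description only.

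Among the effectors, Bax stood well above Bak1, the paralog that shares its pore-forming role. Bax (ENSMUSG00000003873.11, chromosome 7, 45461697 to 45466898) was at 52.2, 39.4 and 46.0 TPM, a mean of 45.9 ± 6.37 TPM (SD, n = 3). Bak1 (ENSMUSG00000057789.14, chromosome 17, 27019810 to 27029009) was at 7.26, 7.92 and 6.34 TPM, a mean of 7.17 ± 0.794 TPM (SD, n = 3). The 2 ranges did not overlap, and neither gene was called in any library. Over protein-coding transcripts alone, Bak1 was at 1.5 TPM.

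Among the BH3-only genes, Bcl2l11, which encodes Bim, was the higher. Bcl2l11 (ENSMUSG00000027381.16, chromosome 2, 128126038 to 128162547) was at 49.6, 62.0 and 50.4 TPM, a mean of 54.0 ± 6.93 TPM (SD, n = 3), the second highest mean of the 10 members on this scale. Over protein-coding transcripts alone it was at 34.9 TPM, below Bcl2l1 at 43.9 and Bax at 43.2 TPM. Bid (ENSMUSG00000004446.12, chromosome 6, 120891930 to 120916853), which carries the signal from death receptors to mitochondria once it is cleaved, was at 15.3, 12.0 and 8.91 TPM, a mean of 12.1 ± 3.20 TPM (SD, n = 3). Bcl2l11 exceeded Bid in each library, and neither was called. Over protein-coding transcripts alone, Bid was at 4.60 TPM.

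The order of the members by mean TPM was Mcl1, Bcl2l11, Bax, Bcl2l1, Bcl2a1b, Bid, Bcl2a1d, Bak1, Bcl2 and Bcl2a1a. Within libraries, 3 of the 9 steps between neighbours had the same sign in all 3 libraries and a mean log2 difference larger than its SD. Mcl1 exceeded Bcl2l11 by a log2 difference in TPM of 2.16 ± 0.13 (SD, n = 3; 4.48-fold). Bcl2a1b exceeded Bid by 1.35 ± 0.59, and Bcl2 exceeded Bcl2a1a by 2.63 ± 2.03. For the other 6 steps, such as Bcl2l11 over Bax (0.24 ± 0.37) and Bax over Bcl2l1 (0.31 ± 0.87), 1 library had the opposite sign, so those neighbours did not differ beyond their spread. An exact permutation test that flips signs, two-sided, gave p = 0.25 for each of the 3 steps, the smallest value that 3 libraries allow, and 0.643 after Benjamini-Hochberg adjustment over 9 steps. Without replicate 1, 6 steps met the rule, and without replicate 3, 5 did. In the second table, 4 steps met it: Bcl2a1b over Bid, at 0.50, did not, while Bcl2l11 over Bax, at 0.16, and Bcl2a1d over Bak1, at 0.96, did.

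Summed by role, survival transcripts outnumbered effector transcripts and BH3-only transcripts in every library, and Mcl1 made most of the difference. The 6 survival genes summed to 370, 312 and 317 TPM, the 2 effectors to 59.4, 47.4 and 52.3 TPM, and the 2 BH3-only genes to 64.9, 74.0 and 59.3 TPM. The survival sum was 6.28-fold the effector sum (log2 2.65 ± 0.06, SD, n = 3) and 5.04-fold the BH3-only sum (log2 2.33 ± 0.23). Mcl1 alone was 60.5%, 81.6% and 77.7% of the survival sum. Without Mcl1 the survival sum was 146, 57.4 and 70.5 TPM, still above the effectors in each library but below the BH3-only sum in replicate 2. RNA sums of this kind do not measure protein, and the sums hold only the members listed here.

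Transcript tables split the 10 genes into 39 annotated transcripts, and 6 genes had more than 1 transcript with counts in the first table. Because nuclear RNA holds partly spliced molecules, transcripts were also grouped by structure, a grouping chosen after the transcript values were seen. A transcript was called intron-extended if an exon of it that overlaps an exon of the main coding transcript ran at least 50 bases into an intron. Over 8572 genes that have such transcripts, 17.1% held at least 50% of their expected counts in them in every library, with a median share of 22.7%. Of the 5 members with such transcripts (Bcl2l11, Bax, Bcl2l1, Bid and Bcl2), 1 was called, Bax, a share near that background.

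In the first table, Bax counts were assigned mostly to a transcript that keeps the first intron. Intron-extended transcripts held 57.0%, 67.3% and 58.9% of Bax counts, mainly Bax-203, which covers the whole 470-base intron at chr7:45466272-45466741 and is annotated as protein-coding. The fully spliced Bax-201, of 192 codons, held 39.1%, 31.8% and 39.0%. The second table placed 63.1%, 73.6% and 62.2% in intron-extended Bax transcripts, with 44.4%, 50.8% and 52.9% in Bax-203 itself. These shares are estimates, and which reads lay in the intron is not given. Bax shares 9.89% of its 31-base words with Gm45808, which overlaps it on the same strand and had 0, 0 and 2.05 expected counts.

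Bcl2l1 divided between a spliced Bcl-xL form and one that runs on past its main coding exon. Bcl2l1-205, of 209 codons, continues 1300 bases into the intron of 47144 bases that follows and held 41.9%, 37.9% and 37.0% of Bcl2l1 counts. Bcl2l1-201, of 233 codons, held 34.2%, 40.1% and 52.3%. Bcl2l1-202 has the same coding length as Bcl2l1-201 but another first exon, and it held 18.9% and 18.5% in replicates 1 and 2 against 1.37% in replicate 3. The second table gave the same library the lowest share of Bcl2l1-202, 0.0265% against 12.6% and 16.1%. Like Bcl2l1-202, Bcl2l1-205 starts at an inner first exon. Together these forms held 60.8%, 56.4% and 38.4% of Bcl2l1 counts, and 53.6%, 52.8% and 33.4% in the second table. The excess of Bcl2l1 in replicate 1 was present in both main forms: Bcl2l1-201 had 1383, 431 and 759 expected counts and Bcl2l1-205 had 1695, 407 and 537.

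Bcl2 has 2 annotated transcripts, and the shorter, Bcl2-202, is a lone exon that ends inside the 168906-base intron of the gene. It held 32.1%, 26.6% and 27.0% of expected counts, and 42.3%, 63.2% and 59.1% of estimated counts in the second table, so which form leads in replicates 2 and 3 depends on the table. Bcl2-201, the spliced form of 236 codons, had 836, 273 and 210 expected counts, and Bcl2-202 had 396, 99.1 and 77.5. On these counts, which are not scaled to library size, both forms were highest in replicate 1. In the second table Bcl2-201 was again highest there, at 943, 413 and 232 estimated counts. Bcl2-202 had 690, 709 and 335, with replicate 2 the highest.

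Bcl2l11 is known for splice forms of Bim that differ in length and potency. Bcl2l11-205, of 196 codons, led with 42.2%, 70.3% and 61.4% of counts. Bcl2l11-202, of 91 codons, whose last exon lies inside the 18070-base intron of the longer form, held 33.1%, 18.3% and 22.1%. Bcl2l11-208, a non-coding form that runs 1001 bases into the same intron, held 22.6%, 10.4% and 13.4%. Replicate 1 had the smallest share of the long form and the largest of the others, in the second table as well, where Bcl2l11-205 held 41.4%, 69.5% and 57.3%.

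**Figure D4:**
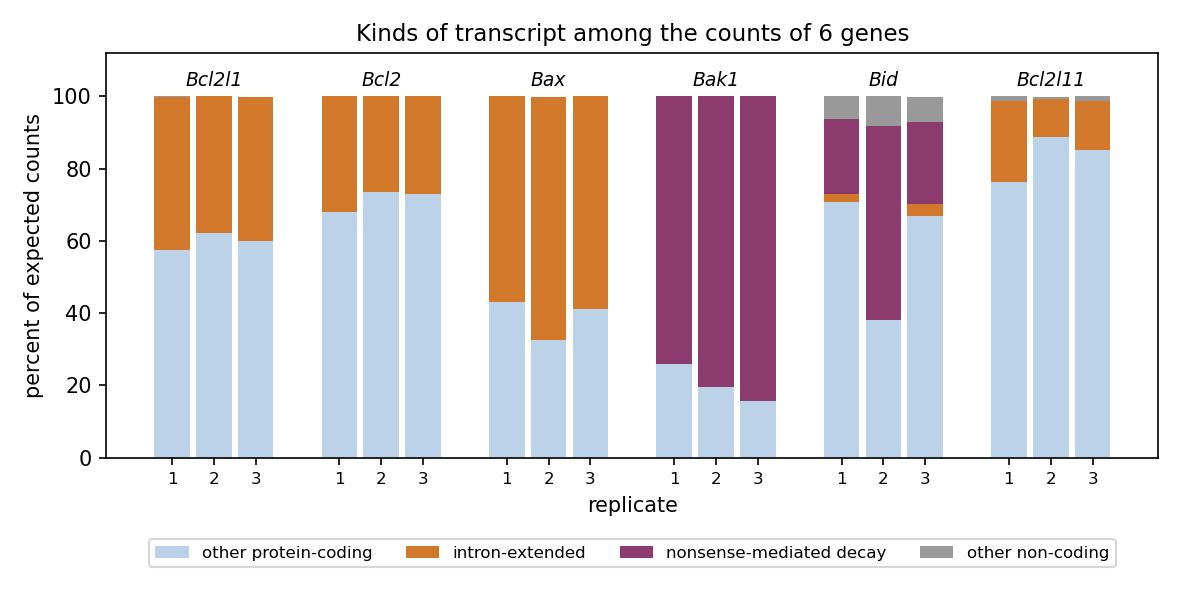
Percent of the expected counts of each gene in intron-extended, nonsense-mediated decay, other protein-coding and other non-coding transcripts, for replicates 1 to 3. Decay-type transcripts make 74.1% to 84.4% of Bak1, and intron-extended transcripts make 57.0% to 67.3% of Bax.

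In the first table, Bak1 counts fell mostly on transcripts of a type that cells are known to destroy. Nonsense-mediated decay is the pathway that destroys RNAs whose reading frame ends too early, and 2 of the 4 Bak1 transcripts are annotated as its targets. Together they held 74.1%, 80.4% and 84.4% of Bak1 expected counts, and 49.5%, 83.0% and 63.1% in the second table. Over the 3546 genes with such transcripts, 3.19% held at least 50% of their expected counts in them in every library, and the median share was 2.23%. Of the 2 members with such transcripts, Bak1 was called and Bid was not. In the second table Bak1 fell short of 50% in replicate 1, where the coding form Bak1-202 alone held 46.2%.

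Each of the 2 Bak1 decay forms has a splice difference from the coding form that is small enough to show here. Bak1-201, of 151 codons, has an extra exon of 20 bases at chr17:27021663-27021682 on the minus strand, in capitals below with 25 bases on either side; a Bak1 form with a small extra exon is known from neurons. Bak1-204, of 79 codons, enters an exon 5 bases later than the coding form Bak1-202, of 209 codons, and lacks the 5 bases in capitals in the third line (chr17:27022873-27022877). Sequences are from the GENCODE M21 transcripts (GRCm38).
Bak1-201, extra exon: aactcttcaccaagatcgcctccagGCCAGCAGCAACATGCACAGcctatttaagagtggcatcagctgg
Bak1-202, same junction: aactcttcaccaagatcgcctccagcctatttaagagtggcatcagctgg
Bak1-202, exon start: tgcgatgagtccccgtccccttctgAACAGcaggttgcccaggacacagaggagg
Bak1-204, later exon start: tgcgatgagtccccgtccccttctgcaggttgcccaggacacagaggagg
Bak1-201 had 123, 144 and 163 expected counts, Bak1-204 had 109, 96.8 and 131, and Bak1-202 had 69.0, 58.7 and 39.0. The forms also differ in total length, at 1974, 1958 and 2387 bases, so the assignment need not rest on these junctions, and the tables do not say which reads crossed them. In addition, 20.4% of the 31-base words of Bak1 also occur on the opposite strand in Ggnbp1, which spans the gene, and whether the counting used strand is not given in the sources used here.

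The share of each Bid transcript differed between libraries. The coding form Bid-201, of 195 codons, held 70.9%, 38.1% and 67.0% of expected counts, and the decay form Bid-204 held 20.7%, 53.8% and 22.5%. The second table gave Bid-204 only 2.92%, 22.5% and 0.000157%, so the decay share of Bid rests on the table, while replicate 2 was the highest in both. Bid shares 16.9% of its 31-base words with Bcl2l13 on the opposite strand.

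In centred counts of whole genes, the tables differed by less than 2-fold for each member. Levels in TPM differed more: Bcl2l1 in replicate 3 was at 22.9 TPM in the first table and 3.55 in the second. Protein-coding genes took 21.3% and 3.84% of TPM in that library. Second-table counts relative to the first, centred on the library median, ranged from 0.810-fold for Bcl2l1 to 1.33-fold for Bcl2a1d. None of the 10 members was at least 2-fold above in every library, where 8.13% of 15743 genes were, and none was at least 2-fold below, where 0.165% were. In the single libraries Bcl2 moved most, by log2 -0.09, 0.72 and 0.52 in replicates 1, 2 and 3. In the second table Bcl2 was still highest in replicate 1, at a log2 difference of 1.10, but it no longer met the 2-fold rule against both other libraries.

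The wider death machinery was described from 6 further lists of 56 genes, of which 48 passed the filter. The median of all 15869 genes that passed was 5.25, 5.40 and 3.77 TPM in replicates 1 to 3. In replicate 1, 2 of the 48 genes were called above and 3 below, against 4.86% and 3.23% of all genes, and none was called in the other libraries.

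Of the other Bcl-2 family genes 9 of 16 passed the filter. They were led by the survival gene Bcl2l2 at 18.3 ± 3.82 TPM (SD, n = 3), followed by Pmaip1, which encodes the BH3-only protein Noxa that targets Mcl1, and Bnip3l, a mitophagy receptor. Pmaip1 was at 5.04, 21.8 and 17.6 TPM. Replicate 1 was low, at 0.234 times the mean of the others on normalised counts, and so was the BH3-only gene Bmf at 0.277 times. Among survival genes, Bcl2l1 and Bcl2 were called above in replicate 1, as given earlier. Not called there were the BH3-only genes Bid, Bcl2l11, Bad and Bbc3, at 1.34, 0.626, 1.21 and 0.724 times the mean of the others. Nor were the survival genes Mcl1 and Bcl2l2, at 0.810 and 1.14 times. Bcl2a1b, Bcl2a1d and Bcl2a1a, at 1.54, 0.773 and 0.445 times, were not called in replicate 1 either. Hrk, a BH3-only gene, was the lowest, with 3, 0 and 1 counts.

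Among apoptosome genes and caspases, 13 of 13 passed the filter and none was called. Htra2, a mitochondrial protease, was at 33.1 ± 8.85 TPM, and Apaf1, the scaffold that cytochrome c activates, was at 27.1 ± 4.23 TPM. Diablo, which blocks inhibitors of apoptosis, was at 8.61 ± 0.948 TPM and the nuclease Endog at 0.560 ± 0.104 TPM (SD, n = 3 for each).

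All 5 inhibitors of apoptosis passed the filter, led by Birc6 at 63.1 ± 15.8 TPM, Birc3 at 29.1 ± 5.02 TPM and Xiap at 22.7 ± 6.81 TPM (SD, n = 3). Birc5, which also serves in mitosis, was the lowest at 3.91, 1.45 and 1.11 TPM and was called above in replicate 1 at 2.85-fold.

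In the death receptor branch, which reaches mitochondria through Bid, 10 of 10 genes passed the filter. Cflar, which encodes the caspase-8 inhibitor c-FLIP, led at 101 ± 22.1 TPM, with the kinase Ripk1 at 27.2 ± 5.69 TPM and Casp8, which cleaves Bid, at 24.4 ± 7.20 TPM (SD, n = 3). In replicate 1 the receptor gene Tnfrsf10b, the lowest of the list, was called above at 2.17-fold and the receptor gene Fas below at 0.450 times. Bmf and Fas are named because they were among the 5 called genes, and Bad and Bbc3 beside them, after their values were seen.

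Of 7 genes for enzymes that control turnover of Mcl1 protein, 6 passed the filter and none was called. The ubiquitin ligase gene Huwe1 was at 83.5 ± 21.6 TPM, the deubiquitinase gene Usp9x at 38.7 ± 9.80 TPM and the kinase gene Gsk3b at 25.2 ± 6.08 TPM (SD, n = 3), while Usp13 had no count. The last list held 5 genes for membrane proteins, of which all passed and none was called. Vdac2, which holds Bak in the mitochondrial outer membrane, was at 37.8 ± 7.02 TPM. Bcap31 was at 34.2 ± 4.46 TPM, Vdac1 at 28.5 ± 4.17 TPM and Vdac3 at 10.1 ± 2.97 TPM.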

How the data were processed

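Ribosomal RNA-depleted total RNA was sequenced in 3 libraries of 1 group. Per the file headers, the first gene and transcript tables hold expected counts and TPM in the column layout of RSEM, and the second transcript table holds estimated counts and TPM in that of kallisto. The authors also deposited a posterior SD for each count, used here as a score, and credibility bounds, scores that were not used. The deposited notes name mm10 and GENCODE M21. The aligner, strand setting and versions of programs were not given in the sources used here.

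Gene names and transcript types came from the second table and matched the annotation. After rounding of expected counts and a filter (mean of 10 or more), log2 CPM came from edgeR 4.0.16 (TMM factors 1.07, 1.02 and 0.921, prior count 2); DESeq2 1.42.0 size factors were an alternative. Levels were compared within libraries on log2(TPM + 0.1). The call rule was checked on simulated counts in which the planted changes were larger than those called in the members. That check does not bear on calls near 2-fold. Counts of 0 allow up to 3 counts, 0.143 to 0.173 CPM, for counting error only. Named were all 10 members, the 3 highest and the lowest gene of each further list, and the 5 protein-coding genes nearest to the most abundant member. Members and lists were chosen with earlier results of these data known.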

Additional observations from a re-analysis of the deposited data

How the results depend on the processing

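Of 214 recomputed values, 166 kept their call or stayed within the replicate spread, 5 lost a call, 8 gained a call and 35 moved. No called direction reversed, but levels, shares and numbers of calls have no direction that could reverse. Some steps that were not called changed sign, such as Bak1 over Bcl2, at log2 -0.24 in the second table. Neighbour steps beyond the spread numbered 3 to 6 when a replicate was left out. Over protein-coding transcripts only, the survival sum exceeded the effector sum by log2 2.90 and the BH3-only sum by 3.09. With all transcripts but without Mcl1, the values were 0.67 and 0.35. In the second table, 3 library calls remained of 5, those of Bcl2l1, Bcl2a1b and Bcl2a1a, the Bcl2a1b share of A1 was 66.3% against 74.8%, and 1 member (Bak1) against 2 (with Bid) had at least 25% of counts outside protein-coding transcripts in every library; the cause of these shifts was not tested. Levels in TPM moved with the scale: Mcl1 was at 895 TPM when only protein-coding genes were counted and at 110 TPM in the second table. Depth limits Bcl2a1a, with 4.63 to 23.0 counts per library. No paired analysis was possible because the labels give 1 group.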

Other observations

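Several annotated genes overlap the members, and in expected counts some of them showed the same order of libraries as their hosts while others did not. Inside the long intron of Bcl2, on the same strand, the unclassified gene Gm37053 (chromosome 1, 106604784 to 106606870) had 84, 27 and 17 expected counts in replicates 1, 2 and 3. The antisense gene D630008O14Rik, which overlaps Bcl2 over 33103 bases, had 50.6, 10.8 and 10.6; 5.49% of the 31-base words of Bcl2 occur in it on the opposite strand. Bcl2 itself had 1231, 372 and 287, so replicate 1 was the highest for all 3.

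Within Bid, on the same strand, the unclassified gene Gm44260 (chromosome 6, 120912900 to 120914993) had 412, 217 and 239 expected counts, beside 491, 321 and 366 for Bid. On the opposite strand of Bid, Gm17812 had 19.9, 14.0 and 7.77 and Bcl2l13 had 658, 504 and 469, both lowest in replicate 3. Bid was lowest in replicate 2 on these counts, which are not scaled to library size. On TPM Bid was lowest in replicate 3, at 8.91. The 2 identifiers of Ggnbp1, opposite Bak1, had 101, 65.8 and 98.9 and 0, 76.4 and 75.5, beside 314, 300 and 348 for Bak1. Across the whole of Bcl2a1d, on the opposite strand, the antisense gene Gm10634 had 144, 108 and 248, beside 136, 98.6 and 274 for Bcl2a1d; the transcripts of the 2 genes share no 31-base word.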
